A study of Homo sapiens with 18 samples.

Results

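LRRC32 and 8 genes that make, store or sense transforming growth factor beta (TGF-beta) were followed through RNAseq of cells given a mimic of a MIR-28 family microRNA, either hsa-miR-28-5p (miR-28) or its relative hsa-miR-708-5p (miR-708). The 9 genes were the ligands TGFB1 and TGFB2, the ligand-holding genes LRRC32, LTBP1, LTBP2 and LTBP3, the receptors TGFBR1 and TGFBR2, and the inhibitor SMAD7, and they were taken by symbol from the expression tables. In hTERT RPE-1 cells, retinal pigment epithelial cells immortalised with telomerase, all 9 were among the 14527 genes that passed the filter on low values, of 15257 listed. In MCF10A cells, a breast epithelial line that is not tumorigenic, 8 of the 9 were among 14726 genes of 15358 listed, and LRRC32 was not analysed here. The control, siNT, was a non-targeting siRNA that stands in for the transfection of any small RNA, and every group of either line received its agent at 30 nM for 72 h. Each of the 6 groups had 3 biological replicates, whose numbers ran from 7 to 9 in MCF10A and from 1 to 3 in hTERT RPE-1. LRRC32 was chosen by its measured fold changes in hTERT RPE-1, among the deepest falls of that line, so its values there are described and not tested. The other 8 were listed with it by symbol, with results of these libraries already known.

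TGF-beta is secreted in a latent form, wrapped in its own propeptide, and cannot bind its receptors until it is released. The latent TGF-beta binding proteins LTBP1 and LTBP3 bind that complex and anchor it to fibrils of the extracellular matrix, while LRRC32, also called GARP, is a membrane protein that holds it at the cell surface and is best known from regulatory T cells and platelets. Released ligand is bound by the type II receptor TGFBR2, which activates the type I receptor TGFBR1, and the receptors then phosphorylate SMAD2 and SMAD3. SMAD7 is induced by the pathway and blocks it at the receptor.

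Both mimics carry the same seed, the bases that pair with a target messenger RNA, and their sequences are shown because every comparison is between agents that share it. The seed, bases 2 to 8, is in capitals. The sequence of hsa-miR-708-5p is from RefSeq, and that of hsa-miR-28-5p is from the table of mimics that accompanies the study.
hsa-miR-28-5p: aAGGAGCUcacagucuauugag
hsa-miR-708-5p: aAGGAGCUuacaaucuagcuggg
Counted from the 5′ end, the first 8 bases were identical and 16 of the 22 positions that could be compared were identical. The changes from hsa-miR-28-5p to hsa-miR-708-5p were C9U, G13A, U18G, U19C, G20U and A21G, and hsa-miR-708-5p has 23 bases against 22.

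The letters GCTCCT, the complement of seed bases 2 to 7, were searched on the sense strand of the GENCODE 44 canonical transcript of each gene (hg38). In the 3′ UTR they were absent from LRRC32, TGFB1, TGFB2, LTBP1 and LTBP3, occurred at 2 places in TGFBR1 and at 1 place each in TGFBR2, LTBP2 and SMAD7. None of these had the longer match AGCTCCT or GCTCCTA. Of the 3′ UTRs of all tested genes in hTERT RPE-1, 35.9% held GCTCCT and 18.7% held a longer match. The 2 places in the last exon of TGFBR1 are shown with the match in capitals. The seed bases that complement it are the same in both mimics.
TGFBR1 3′ UTR, match at chr9:99149347-99149352, plus strand: tttttcttcagatctGCTCCTg
TGFBR1 3′ UTR, match at chr9:99152313-99152318, plus strand: gatggcagcaaggtgGCTCCTg
In the coding sequence the letters occurred at 3 places in LRRC32, of which 1 was the longer GCTCCTA, and 8.85% of the coding sequences of tested genes held at least 3.
LRRC32 exon 2, match at chr11:76665929-76665934, minus strand: accccagatcctgctGCTCCTg
LRRC32 exon 3, match at chr11:76660490-76660495, minus strand: cctgccctgcctgatGCTCCTt
LRRC32 exon 3, match at chr11:76660415-76660420, minus strand: gtctctgcggacgctGCTCCTA
The LTBP genes held many more, with 7 in LTBP1, 12 in LTBP2 and 8 in LTBP3, where 0.658%, 0.0783% and 0.423% of coding sequences held at least as many. These shares take no account of length, and the LTBP coding sequences have 5166, 5466 and 3912 bases. Of these 27 places, 24 were preceded by G and 23 lay in the same reading frame, and 21 read GGCTCCTA or GGCTCCTT. The following 3 come from different exons of LTBP2 and LTBP3 and show the shared letters.
LTBP2 exon 21, match at chr14:74509794-74509799, minus strand: gcctcaacacggaggGCTCCTt
LTBP2 exon 36, match at chr14:74500952-74500957, minus strand: gcgagaacacagaggGCTCCTA
LTBP3 exon 24, match at chr11:65540088-65540093, minus strand: gcgtcaacctgccggGCTCCTA
A match of letters is a description of the sequence and was not tested for use as a site.

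The libraries held an estimated 19.4 to 31.7 M reads on genes in MCF10A and 23.8 to 40.4 M in hTERT RPE-1. Values were taken as estimated read counts divided by a size factor of the library. On that reading 3 reads were worth 2.35 to 4.40 in hTERT RPE-1, a limit that covers counting error only. The tables of the lines were scaled separately, so levels of the lines are not comparable. The hTERT RPE-1 miR-28 replicate 1 stood apart in that 20 ribosomal RNA genes held 16.7% of its values, against 4.84 to 7.88% in the other 8 libraries. All 8 basal breast markers had a row in MCF10A, and their sum was 187600–192300 with siNT, 119000–131800 with miR-28 and 92710–119900 with miR-708. Of 8 retinal pigment epithelium markers 5 had a row in hTERT RPE-1, with RPE65, TYR and TTR not among them, and their sum was 2935–3729, 1933–2064 and 2097–2259. The part of these marker sums in the results was not tested, and in bulk RNA fewer cells of a type and less RNA per cell cannot be told apart.

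LRRC32 (chr11:76657524-76670747, minus strand) was far lower with miR-28 than with siNT in hTERT RPE-1, and lower again with miR-708. Its values were 1096, 2239 and 791 in siNT replicates 1, 2 and 3. They were 101.4, 165.8 and 69.9 with miR-28. They were 5.49, 12.4 and 5.11 with miR-708. No library of any group overlapped another group, and replicate 2 was the highest and replicate 3 the lowest in every group. The mean was 1375 ± 763 (SD, n = 3) with siNT, and the means with miR-28 and miR-708 were 8.17% and 0.557% of it. Since the level of LRRC32 followed the replicate number, the ratio within a number was tighter than the levels. Over all tested genes, deviations from the group mean were little shared by same-numbered siNT and mimic libraries. Their correlations were 0.021 to 0.043 for miR-28 and 0.042 to 0.151 for miR-708, so the ratios within a number are a description. The value with miR-28 was 9.26%, 7.41% and 8.84% of the siNT library of the same number, and with miR-708 0.501%, 0.552% and 0.645%.

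The low level of LRRC32 rested on few reads in the miR-708 libraries. Its values corresponded to 4017 reads over the siNT libraries, 330 over the miR-28 libraries and 26 over the miR-708 libraries. The last were 7, 13 and 6 reads, each above the 3-read limit, with exact Poisson intervals of 2.8 to 14.4, 6.9 to 22.2 and 2.2 to 13.1 reads. On the log2(value + 1) scale, which understates the change of low values, the fold change was -3.55 with miR-28 and -7.27 with miR-708 (SE 0.44 for each), and the difference of miR-708 from miR-28 was -3.72. By the mean of both fold changes, -5.41, LRRC32 ranked 3 from the bottom of 14527 genes, 11 with miR-28 alone and 3 with miR-708 alone. Leaving out any 1 library moved the fold change between -3.88 and -3.13 with miR-28 and between -7.63 and -6.85 with miR-708. The 9 markers of regulatory T cells, platelets and endothelium, the cells in which LRRC32 is best known, had a row for 2 only, with a sum of 46.6 to 54.7 in the siNT libraries of hTERT RPE-1.

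**Figure D1:**
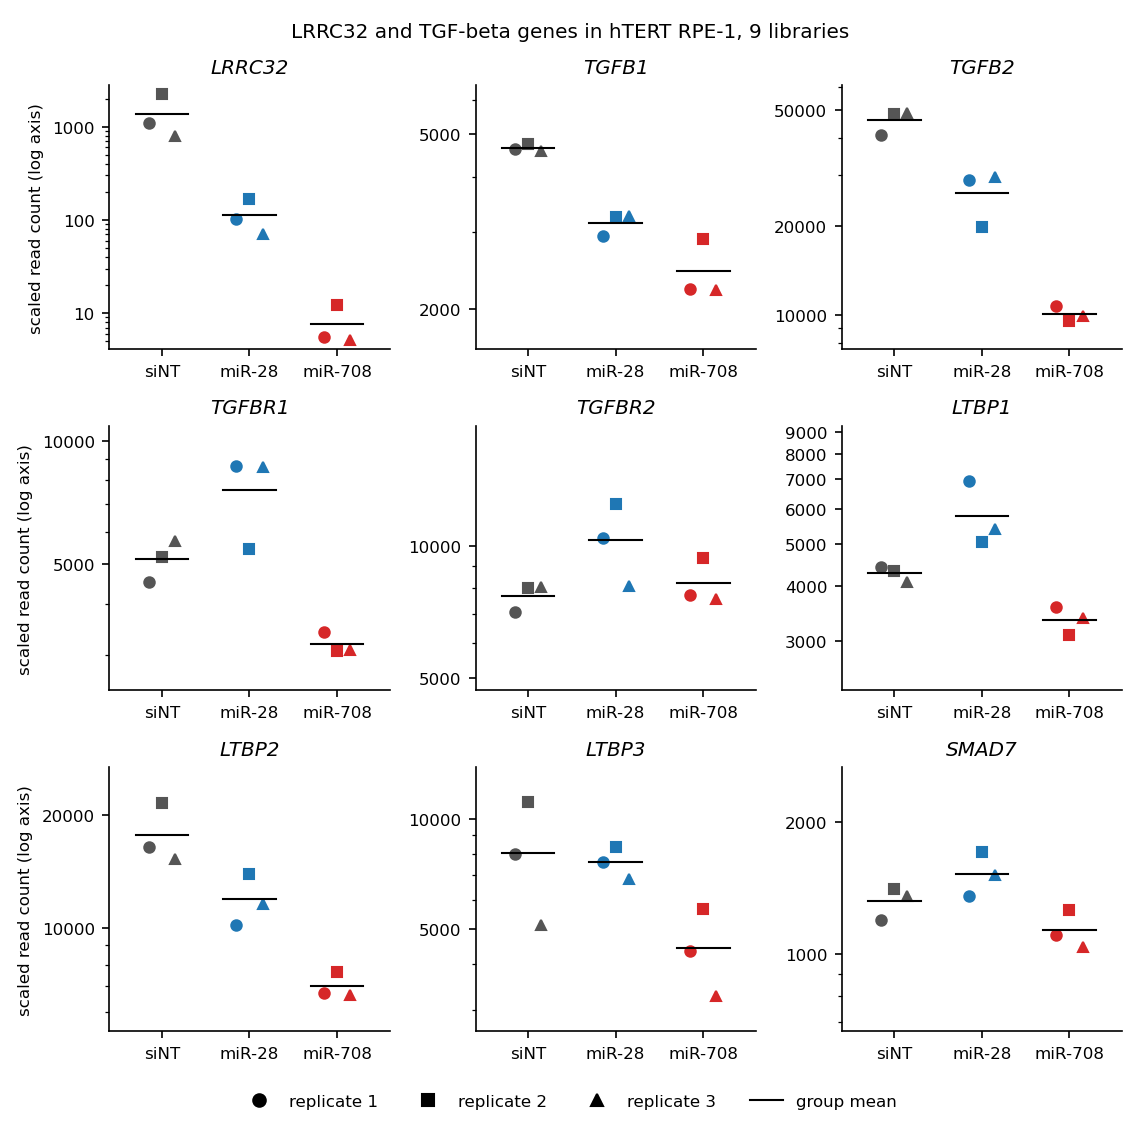
Scaled read counts (vertical log axes, each with its own range) of the 9 genes in the 9 hTERT RPE-1 libraries, by treatment, with a symbol for each replicate number and a line at the group mean. LRRC32 went from 791–2239 with siNT to 69.9–165.8 with miR-28 and 5.11–12.4 with miR-708, while TGFBR2 overlapped between siNT and miR-708.

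The 5 genes whose pattern over the 9 hTERT RPE-1 libraries was most like that of LRRC32 all had lower means with miR-28 than with siNT and the lowest with miR-708. The measure was the root mean square difference of log2(value + 1), each gene centred on its siNT mean. NACAD was nearest at 0.72, and its mean value went from 487.5 with siNT to 22.0 with miR-28 and 2.01 with miR-708, the last under the value of 3 reads. EXTL1, a member of the exostosin family of glycosyltransferases, followed at 1.13, with means of 307.7, 35.2 and 5.63. CEMIP, which takes part in the breakdown of hyaluronan, was at 1.21, with means of 61720, 3081 and 164.5. VSTM2L was at 1.27, with means of 202.2, 25.6 and 4.73. ELN, which encodes elastin of the extracellular matrix, was at 1.37, with means of 206.8, 23.8 and 4.18. Its mimic libraries overlapped, since on the centred scale miR-28 replicate 3 (-5.707) lay below miR-708 replicates 1 (-5.393) and 2 (-4.185). These genes were chosen for their likeness, which therefore carries no test.

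**Figure D2:**
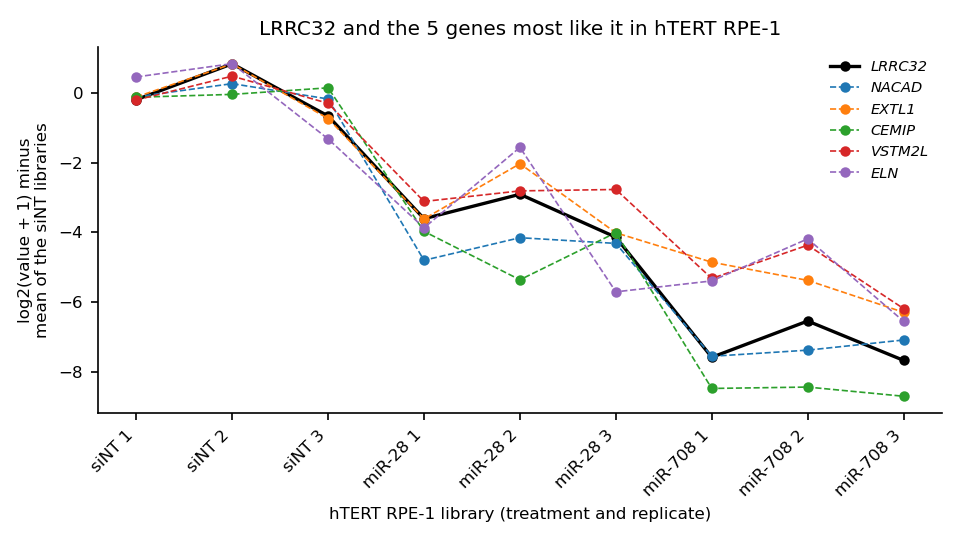
Level of LRRC32 (black) and of the 5 genes most like it in each hTERT RPE-1 library (horizontal axis), as log2(value + 1) minus the gene's siNT mean (vertical axis). LRRC32 lay between -2.90 and -4.14 in the miR-28 libraries and between -6.54 and -7.68 in the miR-708 libraries, and its replicate 2 was the highest in each group.

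The ligand genes TGFB1 and TGFB2 both fell in hTERT RPE-1 with either mimic. TGFB2 (chr1:218345336-218444619, plus strand), one of the ligand isoforms, had values of 41012, 48376 and 48642 with siNT, 28739, 19928 and 29458 with miR-28, and 10706, 9502 and 9902 with miR-708. All miR-28 libraries were below all siNT libraries, and all miR-708 libraries were lower again. TGFB2 changed by -0.84 ± 0.15 (log2 ± SE, limma adjusted p = 0.00124) with miR-28 and by -2.19 ± 0.15 (adjusted p = 1.1e-06) with miR-708. Between the mimics the difference was -1.35 ± 0.15 (adjusted p = 0.000583). TGFB1 (chr19:41330323-41353922, minus strand), the most widely expressed isoform, had values of 4634, 4753 and 4576 with siNT, 2936, 3239 and 3261 with miR-28, and 2224, 2889 and 2206 with miR-708. Its groups did not overlap either, and it changed by -0.57 ± 0.11 (adjusted p = 0.00161) and by -0.94 ± 0.11 (adjusted p = 2.92e-05).

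In MCF10A the ligands gave other values, and TGFB2 rose with miR-28. TGFB2 had values of 369.9, 513.2 and 440.9 in siNT replicates 7, 8 and 9, 620.8, 996.8 and 1183 with miR-28, and 483.1, 371.4 and 524.1 with miR-708. All miR-28 libraries were above all siNT libraries, while the miR-708 libraries overlapped them. The change was 1.04 ± 0.23 (adjusted p = 0.00807) with miR-28 and 0.06 ± 0.23 (adjusted p = 0.874) with miR-708, and the 95% interval of the latter ran from -0.44 to 0.55. TGFB1 had values of 697.9, 799.2 and 732.2 with siNT, 606.0, 611.2 and 706.7 with miR-28, and 556.4, 637.4 and 472.5 with miR-708. All miR-708 libraries were below the siNT libraries, and TGFB1 fell by 0.43 (SE 0.13, adjusted p = 0.0269), a call that was lost without siNT replicate 8 (0.0927), siNT replicate 9 (0.0659) or miR-708 replicate 9 (0.112), and with scaling to library totals (0.116) or to the upper quartile (0.0504). With miR-28 TGFB1 overlapped siNT (-0.21 ± 0.13, adjusted p = 0.259).

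The balance of the ligands, taken per length of transcript within each library, had a lower mean with the mimics than with siNT in hTERT RPE-1 and a higher mean in MCF10A. The ratio of TGFB2 to TGFB1 per kilobase was 4.68 ± 0.439 (SD, n = 3) with siNT in hTERT RPE-1, 3.94 ± 0.909 with miR-28 and 1.99 ± 0.38 with miR-708. In MCF10A it was 0.28 ± 0.027 with siNT, 0.684 ± 0.172 with miR-28 and 0.404 ± 0.125 with miR-708. By a two-sided exact permutation test the ratio differed from siNT at p = 0.1 with miR-708 in hTERT RPE-1 and with miR-28 in MCF10A, which is the smallest p that 3 against 3 libraries can give, and at p = 0.3 for the other mimic of either line.

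Among the LTBP genes, LTBP2 fell with both mimics in hTERT RPE-1, LTBP1 rose with miR-28 and fell with miR-708, and LTBP3 fell with miR-708. LTBP2 (chr14:74498183-74612237, minus strand), a relative that sits on elastic microfibrils and does not itself bind the latent complex, had values of 16442, 21515 and 15335 with siNT, 10194, 13976 and 11632 with miR-28, and 6716, 7664 and 6638 with miR-708. The groups did not overlap, and LTBP2 changed by -0.57 ± 0.15 (adjusted p = 0.00944) and by -1.33 ± 0.15 (adjusted p = 2.59e-05). LTBP1 (chr2:32946953-33399509, plus strand), the first binding protein described for the latent complex, had values of 4418, 4338 and 4097 with siNT, 6940, 5031 and 5389 with miR-28, and 3581, 3092 and 3390 with miR-708. The miR-28 libraries lay above and the miR-708 libraries below all siNT libraries. LTBP1 changed by 0.42 ± 0.12 (adjusted p = 0.0133) with miR-28 and by -0.36 ± 0.12 (adjusted p = 0.0217) with miR-708. The fall was not called without siNT replicate 1 (0.0672), siNT replicate 2 (0.0581) or miR-708 replicate 2 (0.0792), and with scaling to library totals it was -0.04 (0.777). LTBP3 (chr11:65538559-65558359, minus strand), which binds latent ligand in bone and other tissues, had values of 8026, 11078 and 5116 with siNT, 7600, 8363 and 6862 with miR-28, and 4344, 5672 and 3280 with miR-708. The siNT libraries were spread widely and overlapped both mimics. LTBP3 changed by -0.02 ± 0.26 (adjusted p = 0.956) with miR-28 and by -0.83 ± 0.26 (adjusted p = 0.0161) with miR-708, and the latter was lost without siNT replicate 2 (0.0649) or miR-708 replicate 3 (0.0691) and with scaling to library totals (0.0951).

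In MCF10A it was LTBP1 that fell most of these genes, with either mimic. LTBP1 had values of 6819, 6431 and 6985 with siNT, 3273, 3633 and 3897 with miR-28, and 3086, 2678 and 2894 with miR-708. The siNT libraries were all above the others, and the change was -0.91 ± 0.10 (adjusted p = 0.000264) with miR-28 and -1.23 ± 0.10 (adjusted p = 1.26e-05) with miR-708. LTBP2 had values of 809.2, 1173 and 1068 with siNT, 618.1, 913.9 and 944.2 with miR-28, and 450.6, 471.8 and 543.2 with miR-708. Only the miR-708 libraries were clear of siNT, with a change of -1.04 ± 0.18 (adjusted p = 0.00147), against -0.31 ± 0.18 (adjusted p = 0.239) with miR-28. LTBP3 stayed between 476.6 and 814.6 in the 9 libraries, with changes of 0.14 ± 0.18 (adjusted p = 0.591) and -0.16 ± 0.18 (adjusted p = 0.537).

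Per kilobase of transcript, the share of LTBP1 among the 3 LTBP messages was higher in the mimic libraries than with siNT in hTERT RPE-1 and lower in MCF10A. LTBP1 made up 15.3 ± 2.97% of their sum with siNT in hTERT RPE-1, 23.1 ± 4.58% with miR-28 and 23.1 ± 4.02% with miR-708. In MCF10A it made up 81.3 ± 1.29%, 70.7 ± 2.72% and 73.2 ± 1.15%. LTBP2 held 47.8 ± 3.48% in hTERT RPE-1 with siNT, and 36.3 ± 4.43% and 36.8 ± 2.38% with the mimics. The libraries did not overlap in any of these 6 comparisons with siNT, and each gave the smallest two-sided exact permutation p of 0.1. LTBP3 in hTERT RPE-1 held 36.9 ± 5.94%, 40.6 ± 1.26% and 40.1 ± 5.87%, with exact permutation p of 0.5 and 0.6. In MCF10A LTBP2 held 9.4 ± 1.9%, 12.4 ± 2.26% and 9.5 ± 1.07%, with exact permutation p of 0.2 and 0.9. LTBP3 held 9.2 ± 1.7% there with siNT, and 16.9 ± 4.96% and 17.3 ± 0.139% with the mimics, with exact permutation p of 0.1 for each. The shares of a library add up to a whole, so they are not separate results.

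The type I receptor gene TGFBR1 (chr9:99105113-99154192, plus strand) went up with miR-28 and down with miR-708 in hTERT RPE-1. Its values were 4524, 5191 and 5708 with siNT, 8678, 5451 and 8633 with miR-28, and 3418, 3079 and 3093 with miR-708. The miR-28 replicate 2 was within the range of siNT, and all miR-708 libraries were below both other groups. TGFBR1 changed by 0.54 ± 0.17 (adjusted p = 0.022) with miR-28 and by -0.68 ± 0.17 (adjusted p = 0.0045) with miR-708. The rise was not called without siNT replicate 1 (0.086), siNT replicate 2 (0.0518), miR-28 replicate 1 (0.0609) or miR-28 replicate 3 (0.0847), and the fall was -0.36 (0.0674) with scaling to library totals. The difference between the mimics, -1.22 ± 0.17 (adjusted p = 0.00131), passed under every alternative.

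The type II receptor gene TGFBR2 (chr3:30606601-30694142, plus strand) moved less. Its values in hTERT RPE-1 were 7044, 8002 and 8028 with siNT, 10428, 12427 and 8082 with miR-28, and 7730, 9357 and 7564 with miR-708. The miR-28 replicate 3 was just above the highest siNT library, and the miR-708 libraries overlapped siNT. TGFBR2 changed by 0.40 ± 0.15 (adjusted p = 0.0456) with miR-28 and by 0.09 ± 0.15 (adjusted p = 0.614) with miR-708. The call with miR-28 was lost on leaving out siNT replicate 1 (0.145), 2 (0.0779) or 3 (0.0692), miR-28 replicate 1 (0.0799) or 2 (0.147), or miR-708 replicate 1 (0.0609) or 3 (0.0569), as well as without the variance trend (0.0775) and with only the groups compared (0.0658). In MCF10A neither receptor gene passed the test. TGFBR1 was at 1567, 1450 and 1769 with siNT, 1983, 1867 and 1814 with miR-28, and 1871, 1633 and 1747 with miR-708, and all miR-28 libraries exceeded siNT (0.25 ± 0.10, adjusted p = 0.0973). That change was called with scaling to library totals (0.36, adjusted p = 0.0289) or to the upper quartile (0.32, 0.0346). TGFBR2 was at 9586, 10697 and 10869 with siNT and between 7453 and 9933 in the 6 mimic libraries, with changes of -0.22 ± 0.12 (adjusted p = 0.197) and -0.24 ± 0.12 (adjusted p = 0.138).

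SMAD7 (chr18:48919853-48950965, minus strand), the inhibitor of the receptor, passed no test against siNT in either line. In hTERT RPE-1 its values were 1196, 1406 and 1357 with siNT, 1354, 1708 and 1509 with miR-28, and 1106, 1258 and 1038 with miR-708. The siNT libraries lay between the mimics and overlapped both, with changes of 0.20 ± 0.11 (adjusted p = 0.162) and -0.22 ± 0.11 (adjusted p = 0.113). In MCF10A its values were 193.9, 202.5 and 189.0 with siNT, 130.1, 157.6 and 196.1 with miR-28, and 169.1, 170.4 and 204.3 with miR-708. The changes of -0.29 ± 0.18 (adjusted p = 0.268) and -0.11 ± 0.18 (adjusted p = 0.677) had 95% intervals from -0.69 to 0.11 and from -0.51 to 0.29.

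**Figure D3:**
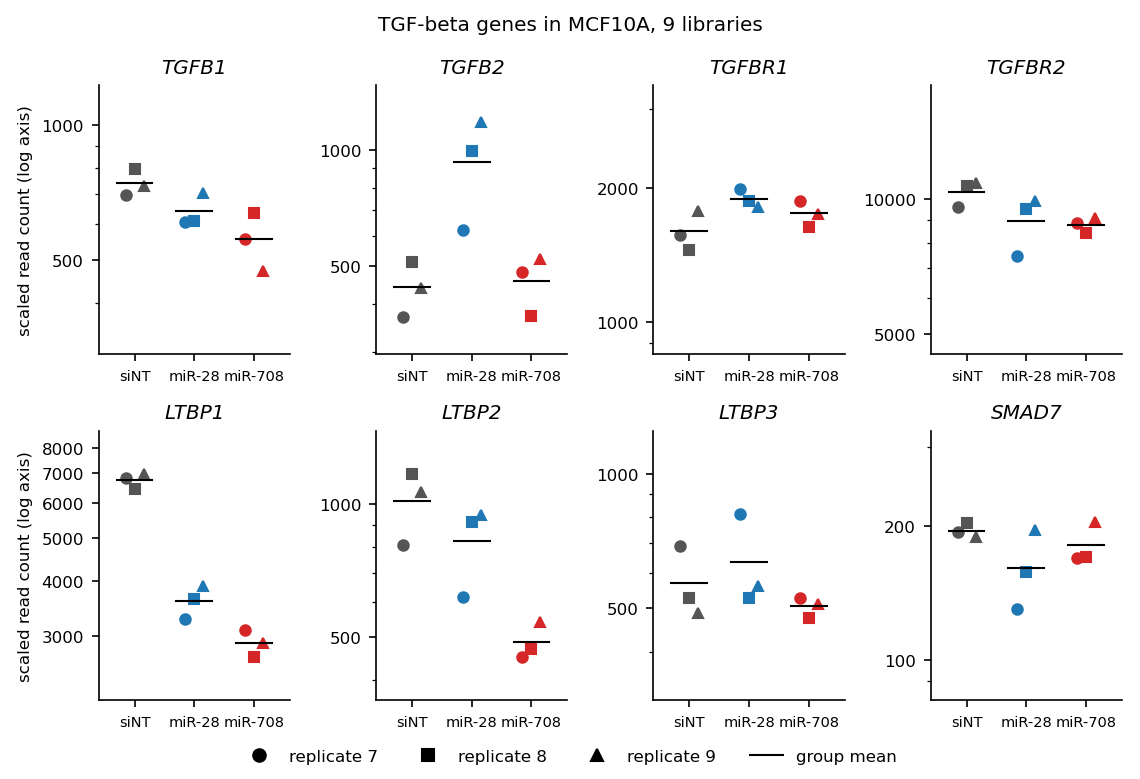
Scaled read counts (vertical log axes, each with its own range) of 8 of the genes in the 9 MCF10A libraries, by treatment, with a symbol for each replicate number and a line at the group mean. LTBP1 went from 6431–6985 with siNT to 3273–3897 with miR-28 and 2678–3086 with miR-708, and the miR-28 libraries of TGFB2 lay above the others.

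Of the 8 genes other than LRRC32, 6 were called with miR-28 in hTERT RPE-1, 3 higher and 3 lower, where 46.8% of all tested genes were called, 23.3% higher and 23.5% lower. With miR-708 6 of 8 were called, all lower, where 62.1% of all tested genes were called and 31.2% were lower. In MCF10A 2 of 8 were called with miR-28 and 3 of 8 with miR-708, shares of 25% and 37.5% against 22.7% and 32.8% of all tested genes, and the 3 with miR-708 were all lower, as were 17.3% of tested genes. Both mimics were compared with the same siNT libraries. The split of calls depended on the scaling over the whole table: with library totals all genes together had a median of 0.318 (log2) with miR-708 in hTERT RPE-1, 0.116 with miR-28 and 0.138 with miR-708 in MCF10A, and the share of calls that were higher went from 49.7% to 71.8%, from 47.1% to 66.1% and from 47.3% to 67.6%. No call of the 8 genes changed direction under any scaling, but calls were lost and gained. With library totals the falls of TGFBR1 (adjusted p = 0.0674), LTBP1 (0.777) and LTBP3 (0.0951) with miR-708 in hTERT RPE-1 were not called. TGFBR2 was then called higher (0.41, adjusted p = 0.0338), so that the calls there were no longer all lower.

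Set against each other directly, miR-708 was lower than miR-28 for 7 of the 8 genes in hTERT RPE-1, where 21.2% of tested genes differed and 11.4% were lower. Besides TGFB2 and TGFBR1, LTBP1 differed by -0.78 ± 0.12 (adjusted p = 0.0021) and LTBP2 by -0.76 ± 0.15 (adjusted p = 0.00622). TGFB1 differed by -0.38 ± 0.11 (adjusted p = 0.0308), LTBP3 by -0.81 ± 0.26 (adjusted p = 0.047) and SMAD7 by -0.42 ± 0.11 (adjusted p = 0.0239). The calls of these last 3 were lost with library totals, where 4 of 8 remained. Over all 14527 tested genes the calls then went from 3084 to 4650, and the share of them that were higher from 46.5% to 84.8%. Leaving out miR-708 replicate 1 or miR-708 replicate 3 also left 4 of 8, and without miR-28 replicate 3 TGFB1 (0.101), LTBP3 (0.0873) and SMAD7 (0.069) were again not called. The share of all tested genes called was not taken for the fits without a library. TGFB1 was also not called without the variance trend (0.0612) or with only the groups compared (0.0662). LTBP3 was not called without the trend (0.0904), siNT replicate 1 (0.0672), miR-28 replicate 1 (0.0801) or miR-28 replicate 2 (0.0774). TGFBR2 did not pass (-0.31 ± 0.15, adjusted p = 0.162, 95% interval -0.64 to 0.02). In MCF10A 0 of 8 differed between the mimics by limma, where 1.55% of tested genes did, and 3 had an unadjusted p below 0.05. These were TGFB2 (-0.99 ± 0.23, adjusted p = 0.0589), LTBP2 (-0.74 ± 0.18, adjusted p = 0.0835) and LTBP1 (-0.32 ± 0.10, adjusted p = 0.154). Without miR-28 replicate 7, TGFB2 (adjusted p = 0.0048) and LTBP2 (adjusted p = 0.0154) were called. Both were called as well with the replicate number as a block (adjusted p = 0.00752 and 0.00328).

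**Figure D4:**
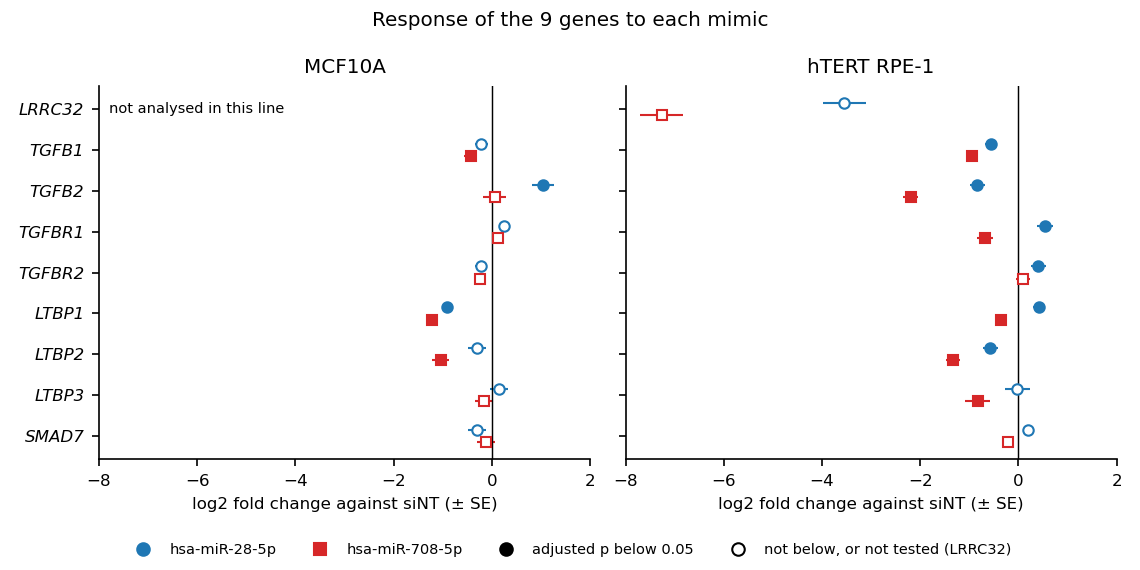
Log2 fold change against siNT (horizontal axis, bars ± SE) of each gene with hsa-miR-28-5p (circles) and hsa-miR-708-5p (squares) in MCF10A and hTERT RPE-1, filled where the adjusted p was below 0.05. LRRC32 lay at -3.55 and -7.27 in hTERT RPE-1 with no test, and TGFB2 and LTBP1 were on opposite sides of 0 in the lines with miR-28.

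The responses of the lines differed for some of these genes by a test of the difference itself, hTERT RPE-1 minus MCF10A. With miR-28 3 of 8 differed, where 23.4% of 13339 genes tested in both lines did. They were TGFB2 (-1.88 ± 0.27, adjusted p = 9.54e-05), LTBP1 (1.33 ± 0.15, adjusted p = 5.8e-06) and TGFBR2 (0.62 ± 0.19, adjusted p = 0.0218). With miR-708 4 of 8 differed, where 39.8% of genes did. TGFB2 was again lower in hTERT RPE-1 (-2.25, adjusted p = 3.37e-06), as were TGFBR1 (-0.82, adjusted p = 0.00288) and TGFB1 (-0.52, adjusted p = 0.019), and LTBP1 was higher (0.87, adjusted p = 0.000135). The difference of TGFBR2 was not called without MCF10A miR-28 replicate 7 (0.0526), hTERT RPE-1 siNT replicate 1 (0.0677) or miR-28 replicate 2 (0.063), and that of TGFB1 not without MCF10A siNT replicate 7 (0.0537), MCF10A miR-708 replicate 8 (0.071) or hTERT RPE-1 miR-708 replicate 3 (0.0527), nor with library totals (0.14). The line, its medium and its sequencing cannot be told apart here.

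Per kilobase of transcript, the order of the levels also moved. With siNT in hTERT RPE-1 TGFB2 led at 7841 ± 738 (SD, n = 3), LTBP2 followed at 2100 ± 390, and TGFBR2, TGFB1 and LTBP3 overlapped at 1698, 1674 and 1670. TGFBR1, LTBP1, SMAD7 and LRRC32 were lower, at 791.9, 658.9, 395.0 and 326.9, and the last pair overlapped. With miR-708 TGFBR2 (1814 ± 219) and TGFB2 (1710 ± 104) overlapped at the top, and LRRC32 was last at 1.82 ± 0.97. With siNT in MCF10A, on that table's own scale, TGFBR2 led at 2292 ± 154 and LTBP1 followed at 1037 ± 43.7, while TGFB2 was at 75.2 ± 12.2, above only SMAD7 at 58.4 ± 2.05.

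Other genes of the pathway were read from 4 lists of 74 genes in all. With miR-708 in hTERT RPE-1 53 of 69 tested were called, 17 higher and 36 lower, a share of 76.8% against 62.1% of all tested genes, with a median log2 fold change of -0.39 against 0.00. With miR-28 33 of 69 were called, 16 higher and 17 lower, and this 47.8% was near the 46.8% of all tested genes. In MCF10A 23 of 65 were called with miR-28 (11 higher and 12 lower), 35.4% against 22.7% of all tested genes, and 29 of 65 with miR-708 (17 higher and 12 lower), 44.6% against 32.8%. These MCF10A counts moved with single libraries. The count with miR-28 was 12 to 14 without replicate 8 or 9 of siNT or of miR-28, and that with miR-708 was 17 to 19 without siNT replicate 8 or 9 or miR-708 replicate 8. The share of all tested genes called in the same fits was not taken, so whether the drop was particular to these genes is not known. The lists were drawn up with results of these libraries known, so their counts are descriptions. Those of hTERT RPE-1 include NRROS as a gene called higher with each mimic, although it passed the filter on low values only through the mimic libraries.

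Genes that store or activate the ligand mostly fell in hTERT RPE-1 with miR-708, 12 of 18 lower and 4 higher (median -0.81), where 31.2% of all tested genes were lower and 62.1% were called. With miR-28 5 were lower and 4 higher, and this 50% was near the 46.8% of all tested genes. LTBP4, the remaining LTBP gene, changed by -1.20 and -1.46 with miR-28 and miR-708 (adjusted p = 0.000181 and 2.21e-05), with a mean of 1412 with siNT and 506.6 with miR-708. ITGAV, the alpha subunit of integrins that release latent ligand, changed by -0.44 and -2.21 (adjusted p = 0.0303 and 8.54e-07). TGFB3, the remaining ligand isoform, went the other way, by 1.20 and 1.24 (adjusted p = 0.00149 and 0.000691), from a mean of 114.0 to 257.5 and 269.9. NRROS, a relative of LRRC32 that holds latent ligand on macrophages and microglia, lies outside the rule for named genes and was picked after its values were seen. Its values were 7.34 to 15.5 with siNT, 50.1 to 82.9 with miR-28 and 97.3 to 126.5 with miR-708. They are given without a test because it passed the filter on low values only through the mimic libraries. The counts above nonetheless include NRROS among the 18 genes and among the 4 higher with each mimic. In MCF10A 2 of 15 were higher and 4 lower with miR-28, and 2 higher and 5 lower with miR-708, shares of 40% and 46.7% against 22.7% and 32.8% of all tested genes. The matrix genes DCN (decorin, which binds TGF-beta, 1.51 and 2.07, adjusted p = 0.0391 and 0.00647) and FBN1 (fibrillin-1, 1.27 and 2.11, adjusted p = 0.0105 and 0.000376) rose, and the protease gene MMP2 fell (-1.61 and -2.27, adjusted p = 0.00267 and 0.000173).

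Receptors and transducers of the signal were called in both directions in hTERT RPE-1, 3 higher and 2 lower of 13 with miR-28, and 4 higher and 5 lower with miR-708. These shares of 38.5% and 69.2% stood against 46.8% and 62.1% of all tested genes. TGFBR3, the co-receptor betaglycan that presents TGFB2, rose by 2.05 and 2.71 (adjusted p = 6.29e-06 and 4.47e-07), from a mean of 91.1 ± 19.4 with siNT to 376.5 ± 33.3 and 593.3 ± 52.4. USP15, a deubiquitinase that acts on the receptor complex, rose by 0.89 and 1.14 (adjusted p = 0.00032 and 2.87e-05). ACVR1B, a type I receptor for activins, changed by -0.47 and -0.46 (adjusted p = 0.00166 and 0.00105). In MCF10A 0 were higher and 2 lower of 13 with miR-28, and 1 higher and 3 lower with miR-708 (15.4% and 30.8% against 22.7% and 32.8% of all tested genes), and no gene of the list met the rule for naming.

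Of the inhibitors, 2 were higher and 1 lower of 11 with miR-28 in hTERT RPE-1, and 3 higher and 3 lower with miR-708. These shares, 27.3% and 54.5%, were below the 46.8% and 62.1% of all tested genes. BAMBI, a decoy receptor, changed by -1.76 and -1.80 (adjusted p = 6.37e-06 and 2.24e-06), from a mean of 2691 to 801.1 and 774.0. NEDD4L, a ubiquitin ligase, rose by 0.69 and 0.59 (adjusted p = 0.00055 and 0.000805). In MCF10A 1 was higher and 2 lower of 12 with miR-28, and 2 higher and 2 lower with miR-708, and these 25% and 33.3% were near the 22.7% and 32.8% of all tested genes. The ubiquitin ligase gene SMURF2, whose product acts with SMAD7 on the receptor, changed by -0.54 and -0.50 (adjusted p = 0.00976 and 0.00855), and the corepressor gene TGIF2 by -0.37 and -0.55 (adjusted p = 0.0433 and 0.00475).

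Of the genes known to respond to TGF-beta, those called with miR-708 were mostly lower in hTERT RPE-1 and mostly higher in MCF10A. In hTERT RPE-1 7 were higher and 9 lower of 27 with miR-28, and 6 higher and 16 lower with miR-708 (median -0.86), shares of 59.3% and 81.5% against 46.8% and 62.1% of all tested genes. COL1A1, a chain of type I collagen, changed by -2.17 and -3.86 (adjusted p = 0.00764 and 0.000125), from a mean of 41392 ± 23220 (SD, n = 3) to 9572 and 2938. ACTA2, smooth muscle actin, changed by -1.56 and -4.12 (adjusted p = 0.004 and 3.87e-06), with libraries of 17973 to 59612 with siNT and 1964 to 2307 with miR-708. ANGPTL4, a secreted inhibitor of lipoprotein lipase that other signals also induce, rose by 4.07 and 5.07 (adjusted p = 8.49e-05 and 8.46e-06), from a mean of 28.6. In MCF10A 8 were higher and 4 lower of 25 with miR-28, and 12 higher and 2 lower with miR-708 (median 0.46), shares of 48% and 56% against 22.7% and 32.8%. COL1A1 rose there by 1.21 and 0.88 (adjusted p = 0.00343 and 0.0102) from a mean of 100.0. ID2 (0.80 and 1.97, adjusted p = 0.0148 and 6.32e-05) and ID3 (0.76 and 1.34, adjusted p = 0.00189 and 3.38e-05), inhibitors of helix-loop-helix factors that bone morphogenetic proteins induce, rose as well. The fold changes in hTERT RPE-1 were 2.44 and 1.71 for ID2 and 0.002 and -0.86 for ID3. The list was not split by whether TGF-beta raises or lowers a gene, so its counts and medians are no measure of pathway output. The sum of 6 mesenchymal markers, which include collagen genes, was 161700–189800 with siNT, 150800–160300 with miR-28 and 126100–142800 with miR-708 in hTERT RPE-1. In MCF10A 4 of the 6 had a row, and their sum was 12410–16960, 10900–21550 and 15270–22230, while the sum of the basal breast markers was lower with either mimic, as given above. The part of these sums in the changes was not tested.

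**Figure D5:**
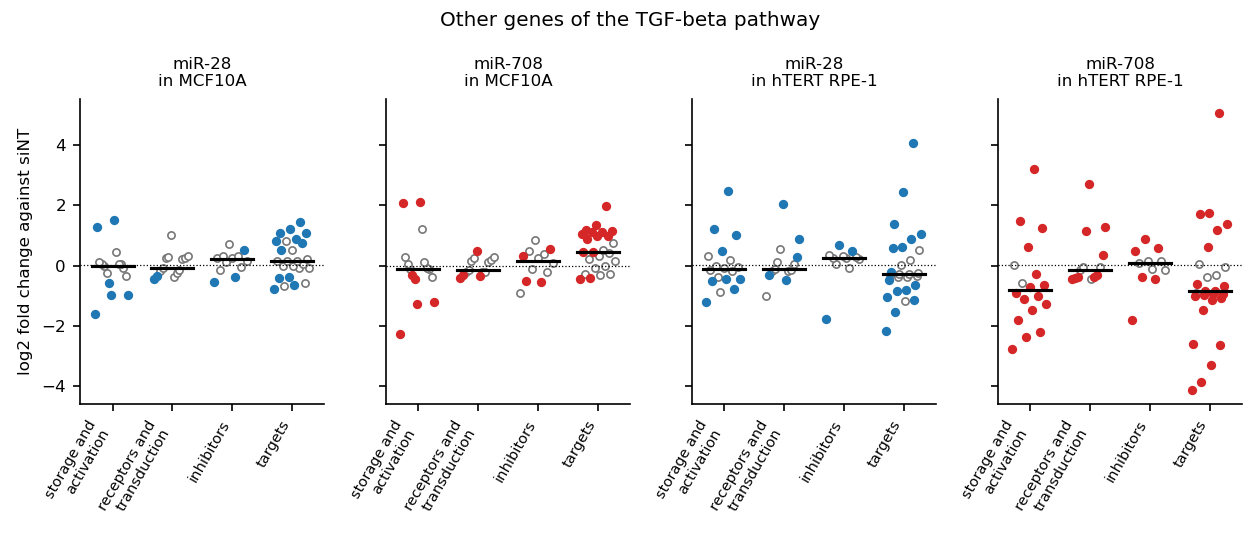
Log2 fold change against siNT (vertical axis) of the tested genes of the 4 pathway lists with each mimic in MCF10A and hTERT RPE-1, filled where the adjusted p was below 0.05, with a bar at the list's median and a dotted line at the median of all tested genes. With miR-708 the median of the target genes was -0.86 in hTERT RPE-1 and 0.46 in MCF10A. NRROS is among the genes drawn for hTERT RPE-1.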

How the data were processed

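Polyadenylated RNA of 18 libraries from 2 cell lines was sequenced in paired ends. The authors trimmed adapters, aligned to hg38 with HISAT2 2.1.0 and counted over RefSeq transcripts in Partek Flow by its E/M algorithm. The signal the authors deposited for a gene in a library was taken to be an estimated read count already divided by a size factor of that library. Between 78.8% and 83.0% of low values were whole multiples (within 0.002) of a library's step, so whole reads were not recovered and a count model was not used. Depth was read from that step. The authors' own fold changes and p-values, which they obtained with DESeq2, were not used.

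Genes that reached 10 in 3 or more of a line's 9 libraries were fitted with limma 3.58.1 (R 4.3.3) on log2(value + 1), with 3 group means and a variance trend. Adjustment was by Benjamini-Hochberg over all genes of the line with calls below 0.05. Every adjusted p within a line is from this test, in the main fit or in the alternative named beside it. Responses of the lines were compared through the difference of their fold changes with Welch–Satterthwaite degrees of freedom. An adjusted p between the lines is from that comparison, by Benjamini-Hochberg over genes tested in both. The fit was tested on simulated data. Scalings, filters, pseudocounts, a replicate block, a fold threshold and each library left out were tried as alternatives. Libraries of the same number deviated together in MCF10A between either mimic and siNT (lowest correlation of deviations over genes 0.111) and in hTERT RPE-1 between the mimics (0.134), so the numbers pair those libraries by the data, since no label describes the pairing, and the block changed no call of the 8 genes other than LRRC32 there.

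All 9 genes are named, with up to 3 genes per pathway list and line that had the largest mean change among genes called with both mimics and a mean of at least 100. The genes and lists were chosen with earlier results of these data known. Positions, lengths and sequences are from GENCODE 44 and RefSeq (GRCh38.p14). Python 3.11.15, pandas 2.3.3 and scipy 1.17.1 were used.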

Additional observations from a re-analysis of the deposited data

Results flagged for a closer look

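The response to a mimic differed between hTERT RPE-1 and MCF10A for 7 pairs of gene and mimic, by the test of the difference. With miR-28 the difference (hTERT RPE-1 minus MCF10A, log2) was -1.88 for TGFB2, 0.62 for TGFBR2 and 1.33 for LTBP1. With miR-708 it was -0.52 for TGFB1, -2.25 for TGFB2, -0.82 for TGFBR1 and 0.87 for LTBP1. TGFB2 with miR-28 had changes of opposite sign that each passed the test in their own line, 1.04 in MCF10A and -0.84 in hTERT RPE-1, and so did LTBP1, with -0.91 and 0.42. The cause of these differences was not tested.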

How the results depend on the processing

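Requiring an absolute log2 fold change of at least 1 left 1 of the 8 genes other than LRRC32 and 7 pathway genes with miR-28 and 12 pathway genes with miR-708 in MCF10A, 1 pathway gene between the mimics there, and in hTERT RPE-1 0 and 14 with miR-28, 2 and 28 with miR-708, and 2 and 11 between the mimics. The share of all tested genes that passed this fold rule was not taken, so these counts cannot be read as many or few. Scaling to library totals left 4 of the 8 genes between the mimics in hTERT RPE-1, where 4650 of 14527 tested genes were called. Between the mimics in MCF10A, 2 pathway genes were called, 0 without the variance trend and 1 with only the groups compared. The replicate block raised that count to 12 and the count of the 8 genes to 2 (TGFB2, adjusted p = 0.00752, and LTBP2, 0.00328). There the pairing was undecided by the mimic libraries alone, yet the same numbers paired each mimic with siNT. Same-numbered libraries of the mimics had correlations of 0.121, 0.025 and 0.177 for replicates 7, 8 and 9. That of replicate 8 was short of 0.1, and 4 of 6 libraries were closest to their own number. In hTERT RPE-1 the lowest such correlation was 0.021 and 0.042 for miR-28 and miR-708 against siNT, though 6 of 6 were closest to their own number. The block also called LTBP3 between the lines with miR-708 (-0.68, adjusted p = 0.0059) and changed no other call of the 8 genes.

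Leaving out 1 library at a time gave 0 to 2 of the 8 genes and 0 to 7 pathway genes between the mimics in MCF10A, 4 to 7 and 18 to 32 in hTERT RPE-1, and 12 to 25 and 17 to 34 pathway genes with miR-28 and miR-708 in MCF10A. The latter counts were 12 to 14 without replicate 8 or 9 of siNT or of miR-28, and 17 to 19 without siNT replicate 8 or 9 or miR-708 replicate 8. For the fits without a library the share of all tested genes called was not taken. The same holds for the replicate block, the fit without the trend and that with only the groups compared. Signs turned for changes that passed no test. With library totals these were SMAD7 with miR-708 (0.032 in MCF10A, 0.099 in hTERT RPE-1, 0.067 between the lines), TGFBR2 between the mimics in MCF10A (0.012) and LTBP3 with miR-28 in hTERT RPE-1 (0.066, and 0.005 with the upper quartile). Without 1 library they were LTBP3 with miR-28 (-0.051 to 0.29 in MCF10A, -0.31 to 0.24 in hTERT RPE-1, -0.46 to 0.10 between the lines), TGFB2 with miR-708 in MCF10A (-0.065 to 0.20), TGFBR2 between the mimics in MCF10A (-0.15 to 0.059) and TGFBR2 with miR-708 in hTERT RPE-1 (-0.006 to 0.15). The cause was not tested. TGFBR2 with miR-708 gained a call with library totals in hTERT RPE-1 (0.41, adjusted p = 0.0338) and between the lines (0.51, 0.0391). Without MCF10A miR-28 replicate 9 SMAD7 was called between the lines with miR-28 (0.65, 0.0493), and without hTERT RPE-1 miR-28 replicate 2 TGFBR1 was (0.51, 0.0172). LTBP3 with miR-708 was called between the lines without MCF10A siNT replicate 7 (-0.82, 0.0484), hTERT RPE-1 siNT replicate 3 (-0.97, 0.0107) or miR-708 replicate 2 (-0.87, 0.0428). Without hTERT RPE-1 miR-28 replicate 3 TGFBR2 was called between the mimics (-0.48, 0.0449). Depth limits the LRRC32 values of the miR-708 libraries.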
